A study of Mus musculus with 24 samples.

Results

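The replication-dependent histone genes encode the H1, H2A, H2B, H3 and H4 proteins on which newly copied DNA is packed, and 56 Illumina probes for 39 of these genes were measured in mouse left ventricle. Members were all probes whose gene symbol belongs to the H1, H2ac, H2bc, H3c or H4c families (older symbols Hist1 to Hist4) and whose detection p-value, the chance of such a signal from background alone, was under 0.05 on 3 or more arrays out of 12 in each strain. The arrays carried 45281 probes for 19057 named genes, of which 90 probes for 60 genes were replication-dependent histone probes. Of the members, 48 were detected on all 24 arrays and 8 on fewer. Of the 34 left out, 29 passed in neither strain, 4 passed in C57Bl/6J only and 1, a probe of H3c8, passed in Balb/C only, and 21 were detected on no array. Nearest the limit among members was the H3c7 probe, detected on 3 arrays of C57Bl/6J and 5 of Balb/C. Just outside lay H2ac4, detected on 5 and 2 arrays, and a probe of H2bc4, detected on 3 and 0.

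The members were chosen by their symbols and by detection, and the family itself was selected on the measured response to angiotensin II (AngII) of H2ac22, H2ac7 and H2ac24, which had differed between strains. For the 4 probes of those genes the treatment effects, and the strain difference of the response for every member, are therefore given as descriptions with no test. Tests are reported for the other 52 probes, and for all 56 where genotypes were compared over both treatments together, a contrast that the choice did not use. The H2A genes of one cluster are close to identical in their coding sequence, the probe sequences were not used here, and how far these probes share signal is uncertain. The other H2A probes are therefore not independent of the 4 that drew attention to the family.

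Ventricles were those of male C57Bl/6J or Balb/C animals that received AngII, a peptide hormone that constricts vessels and enlarges the heart, or NaCl (titled sham) for 2 weeks. In each strain the mice were wild type or labelled Bmx deficient, Bmx being a tyrosine kinase of the Tec family, and each of the 8 groups had 3 arrays. Deficient C57Bl/6J animals are titled KO, those of Balb/C are titled TK, and neither the alleles behind these codes nor the ages are given in the sources used here. The labels do not say whether the arrays of a group came from separate animals, so that p-values measure only the spread between these samples.

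Replication-dependent histone genes have no introns, lie in clusters and are transcribed mainly while DNA is copied in S phase. Their main transcripts end in a stem-loop, bound by the stem-loop binding protein Slbp, in place of a poly(A) tail. Kits of the type used for labelling here start from poly(A) tails, so that the arrays read polyadenylated or internally primed histone RNA and not the whole stem-loop pool. In the adult heart most myocytes have left the cell cycle, while fibroblasts, endothelial cells and macrophages can divide. The large Hist1 cluster on chromosome 13 held 44 of the member probes and the smaller Hist2 cluster held 12.

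Many H2A genes of the Hist1 cluster stand head to head with an H2B gene, the pair sharing a short stretch between their starts. These stretches are shown for the 3 genes that drew attention to the family and for 2 further H2A genes whose H2B partner was also measured, since both partners read from the same sequence. Each is printed from the partner's side toward the H2A gene, from RefSeq's promoter table for GRCm38.p6, with each match to CCAAT on either strand in capitals, and likewise the TATA box TATAAA and the octamer ATTTGCAT.
H2ac22: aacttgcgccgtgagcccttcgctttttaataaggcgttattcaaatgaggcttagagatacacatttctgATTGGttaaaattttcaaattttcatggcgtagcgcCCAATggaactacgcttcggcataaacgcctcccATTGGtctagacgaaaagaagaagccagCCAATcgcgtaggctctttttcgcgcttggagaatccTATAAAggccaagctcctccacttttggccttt
H2ac24: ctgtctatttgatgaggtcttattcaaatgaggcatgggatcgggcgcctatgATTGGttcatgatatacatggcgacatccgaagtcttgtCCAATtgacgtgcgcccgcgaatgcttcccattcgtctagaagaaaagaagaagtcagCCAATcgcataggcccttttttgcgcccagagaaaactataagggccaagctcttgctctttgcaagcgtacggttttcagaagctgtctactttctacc
H2ac7: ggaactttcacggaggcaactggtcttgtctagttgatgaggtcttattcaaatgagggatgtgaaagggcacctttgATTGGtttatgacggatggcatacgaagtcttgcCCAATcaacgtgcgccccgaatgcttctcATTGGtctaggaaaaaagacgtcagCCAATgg
H2ac12: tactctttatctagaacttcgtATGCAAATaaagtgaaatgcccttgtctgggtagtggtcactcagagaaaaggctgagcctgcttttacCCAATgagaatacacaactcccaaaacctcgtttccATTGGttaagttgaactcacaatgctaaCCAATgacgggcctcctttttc
H2ac15: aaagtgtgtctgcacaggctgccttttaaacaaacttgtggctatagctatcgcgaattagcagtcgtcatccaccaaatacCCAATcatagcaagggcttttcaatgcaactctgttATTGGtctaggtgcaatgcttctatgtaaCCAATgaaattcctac
The H2ac22 stretch lies at chr13:21787249-21787487, minus strand, with H2bc22 starting 240 bases from H2ac22. The H2ac24 stretch lies at chr13:21833476-21833725, minus strand, within the 268 bases that separate H2ac24 from the gene RefSeq lists as H4bc24 (older symbol Hist1h2br). The H2ac7 stretch lies at chr13:23574208-23574380, plus strand, with H2bc7 at 174 bases. The H2ac12 stretch lies at chr13:22035644-22035820, minus strand, with H2bc12 at 178 bases, and that of H2ac15 at chr13:21753913-21754075, minus strand, with H2bc15 at 164 bases. The stretches held 4, 3, 4, 3 and 3 matches to CCAAT, the box bound by the factor NF-Y. TATAAA stood only in the H2ac22 stretch and the octamer only in that of H2ac12. Over the 250 bases upstream of each start, these 5 genes were 45.3% to 58.6% identical in gapped pairwise alignment, H2ac22 and H2ac24 being the closest pair. For all but H2ac24 these 250 bases run past the partner's start. Unrelated promoters were not aligned, so these values have no baseline.

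Promoter windows (250 bases before to 50 after the start) were found for 35 of the 39 member genes. CCAAT was present in 28 of the 35, or 80%, against 37.4% of the 32851 windows in the table, and TATAAA in 21 of 35, or 60%, against 13.6%. The classes differed in which of the motifs they held, since CCAAT was in 8 of 8 H2A genes of Hist1 and 2 of 9 H4 genes, and TATAAA in 4 of 8 and 8 of 9. ATTTGCAT was found in 4 of 35 member windows (11.4%) and in 1.74% of all. A match is a string of letters and not a tested binding site.

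Signals were normalized within each strain and are given as log2 values, and differences are log2 differences ± SE between groups of 3 arrays, from limma with Benjamini-Hochberg adjustment over all probes kept in the strain. Median raw signal ranged from 124.2 to 139.8 in C57Bl/6J and from 95.3 to 110.2 in Balb/C, and replicates correlated at 0.987 to 0.991 and 0.984 to 0.991. Of 10 ventricular myocyte markers 9 were measured, and all were detected on every array. Of 4 Bmx probes 1 was detected throughout, at 5.61 to 6.06 in deficient and 5.29 to 5.76 in wild type Balb/C arrays and at 6.0 to 6.63 and 6.28 to 6.7 in C57Bl/6J. Where this probe lies relative to the altered part of the gene is not given, so that it does not check the genotype labels. In bulk tissue fewer cells of a type cannot be told apart from less RNA per cell.

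In wild type Balb/C ventricle AngII was accompanied by higher H2A signal from the Hist1 cluster. All 8 tested H2A probes of that cluster rose, by 0.69 to 2.12 on the log2 scale, and the 4 descriptive probes differed by 1.51 to 2.4. The median difference was 1.72 over the 8 tested probes and 1.66 over all 12, against -0.06 over all probes of the strain. The AngII arrays all lay above the sham arrays for each of the 8 tested probes, as for 20% of all kept probes. The 4 descriptive probes, whose response chose the family, lay the same way. Across the family 17 of 52 tested probes changed, 15 higher and 2 lower, or 32.7%, beside 34.3% of all kept probes (16.5% higher and 17.7% lower), so that the share of histone probes that changed was near that background. With arrays brought to one median instead of matched by quantiles, which moved the median of all probes in this contrast from -0.06 to 0.28, the split was 26 higher and 0 lower.

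**Figure D1:**
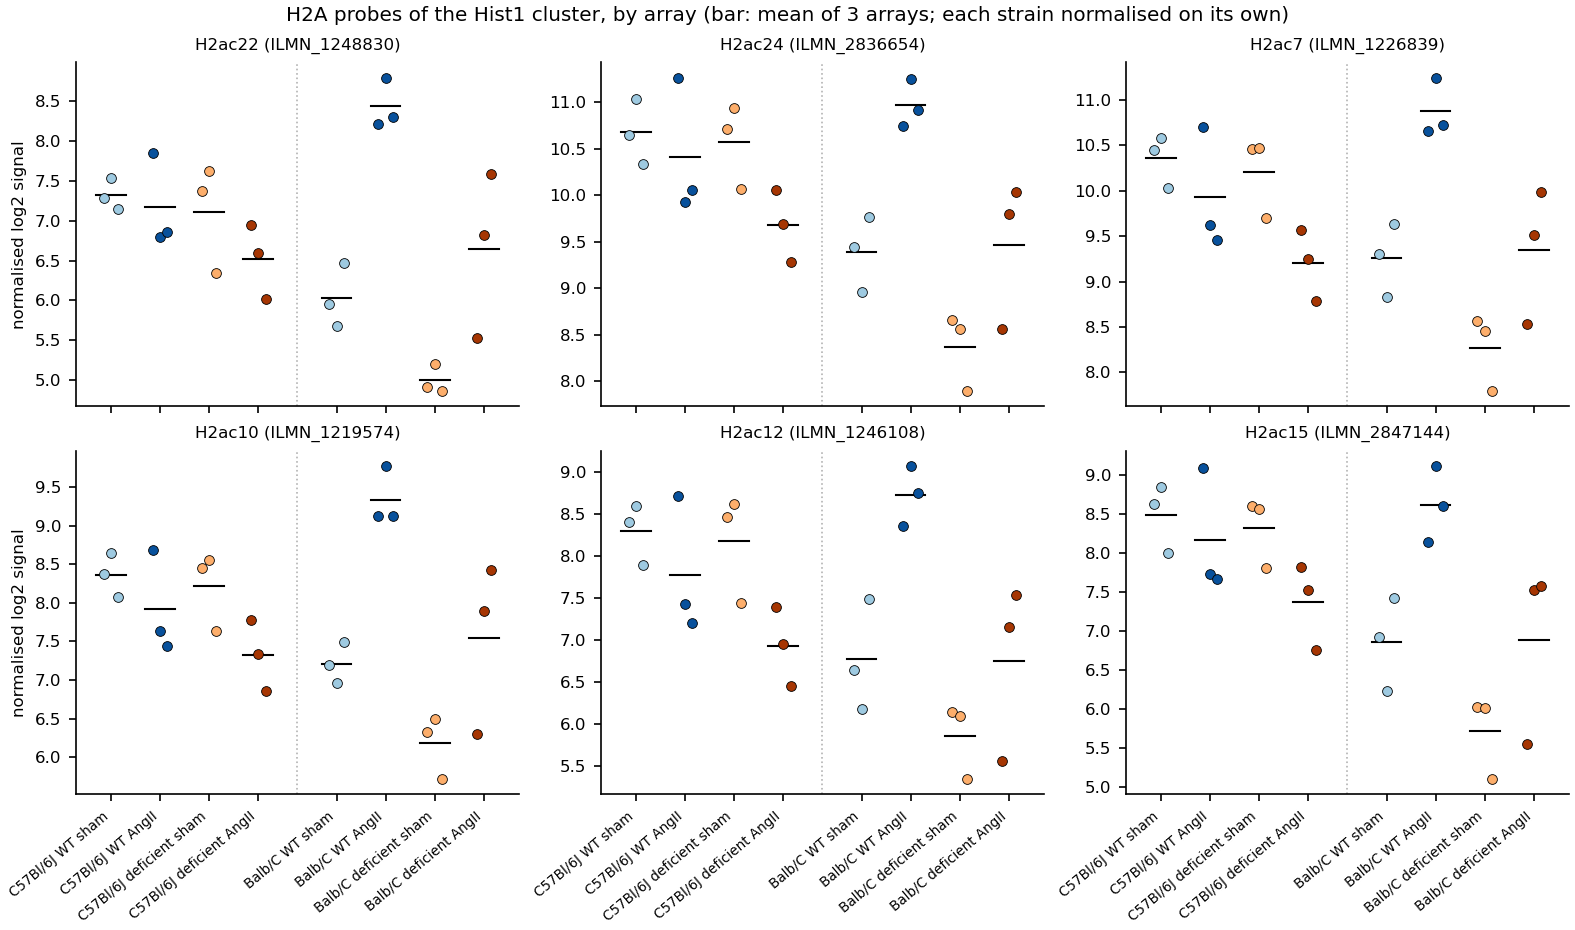
Normalized log2 signal (vertical axis) of 6 H2A probes of the Hist1 cluster on each of the 24 arrays, by strain, genotype and treatment. Points are arrays and bars the mean of 3; in wild type Balb/C the 3 AngII arrays lie above the 3 sham arrays in every panel, while C57Bl/6J shows no such gap.

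H2ac22, the gene with the widest difference, gave signals in Balb/C of 5.96, 5.68 and 6.47 in wild type sham, 8.21, 8.79 and 8.3 in wild type AngII, 4.92, 5.2 and 4.87 in deficient sham and 5.53, 6.82 and 7.58 in deficient AngII. Every AngII array stood above every sham array within each genotype, and the 3 deficient sham arrays were the lowest of the 12. In C57Bl/6J, H2ac22 read 7.28, 7.53 and 7.15 in wild type sham, 7.85, 6.79 and 6.86 in wild type AngII, 7.37, 7.62 and 6.34 in deficient sham and 6.95, 6.6 and 6.02 in deficient AngII. There the groups overlapped, and wild type AngII replicate 1 was the highest array of the strain.

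H2ac24 read 9.44, 8.96 and 9.76 in wild type sham, 10.74, 11.25 and 10.92 in wild type AngII, 8.66, 8.56 and 7.9 in deficient sham and 8.56, 9.8 and 10.03 in deficient AngII in Balb/C. Wild type AngII arrays stood clear of the rest, and 1 deficient AngII array lay within the deficient sham range. The C57Bl/6J signals of H2ac24 were 10.65, 11.03 and 10.34 in wild type sham, 11.26, 9.93 and 10.05 in wild type AngII, 10.71, 10.94 and 10.07 in deficient sham and 10.06, 9.69 and 9.28 in deficient AngII. Deficient AngII arrays were below deficient sham arrays there. The brighter H2ac7 probe gave 9.3, 8.83 and 9.63 in wild type sham, 10.66, 11.24 and 10.72 in wild type AngII, 8.56, 8.46 and 7.8 in deficient sham and 8.53, 9.51 and 9.99 in deficient AngII in Balb/C. Its C57Bl/6J signals were 10.45, 10.58 and 10.03 in wild type sham, 10.7, 9.62 and 9.46 in wild type AngII, 10.46, 10.47 and 9.7 in deficient sham and 9.57, 9.25 and 8.79 in deficient AngII. The dimmer H2ac7 probe gave 7.44, 6.76 and 7.88 in wild type sham, 8.57, 9.19 and 8.84 in wild type AngII, 6.49, 6.3 and 5.49 in deficient sham and 5.56, 7.56 and 7.65 in deficient AngII in Balb/C, and again the wild type AngII arrays were the highest. In C57Bl/6J this dimmer probe read 8.76, 9.19 and 8.22 in wild type sham, 9.29, 7.85 and 7.65 in wild type AngII, 8.82, 8.84 and 7.73 in deficient sham and 7.78, 7.23 and 6.67 in deficient AngII. Differences between AngII and sham in wild type Balb/C were 2.4 ± 0.35 for H2ac22, 1.58 ± 0.31 for H2ac24 and 1.62 ± 0.3 and 1.51 ± 0.42 for the H2ac7 probes. In deficient Balb/C the same differences were 1.65 ± 0.35, 1.09 ± 0.31, 1.07 ± 0.3 and 0.83 ± 0.42. In C57Bl/6J they were -0.15, -0.26, -0.43 and -0.46 in wild type and -0.59, -0.9, -1.01 and -1.23 in deficient mice.

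Among the H2A probes that were tested, the dimmer probe of H2ac10 gave 7.19, 6.96 and 7.49 in wild type sham, 9.12, 9.77 and 9.12 in wild type AngII, 6.33, 6.49 and 5.72 in deficient sham and 6.3, 7.89 and 8.43 in deficient AngII in Balb/C. It rose by 2.12 ± 0.37 (adjusted p = 0.000372) in wild type and by 1.36 ± 0.37 (adjusted p = 0.0228) in deficient mice, although in the latter 1 AngII array lay within the sham range. In C57Bl/6J, H2ac10 read 8.37, 8.64 and 8.08 in wild type sham, 8.68, 7.63 and 7.44 in wild type AngII, 8.45, 8.56 and 7.63 in deficient sham and 7.78, 7.34 and 6.86 in deficient AngII with that probe. Its brighter probe gave 10.92, 10.57 and 10.83 in wild type sham, 11.44, 11.58 and 11.37 in wild type AngII, 11.02, 10.59 and 10.06 in deficient sham and 10.74, 11.08 and 11.01 in deficient AngII in Balb/C. That probe rose by 0.69 ± 0.2 (adjusted p = 0.0118) in wild type, a smaller difference than the dimmer probe gave. It missed the threshold without sham replicate 2 (0.59, adjusted p = 0.0555). Its C57Bl/6J signals were 11.85, 11.98 and 11.78 in wild type sham, 12.02, 11.59 and 11.65 in wild type AngII, 11.7, 11.84 and 11.58 in deficient sham and 11.56, 11.49 and 11.32 in deficient AngII.

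H2ac12 was read by 2 probes, of which the first gave 6.65, 6.18 and 7.49 in wild type sham, 8.36, 9.07 and 8.75 in wild type AngII, 6.14, 6.1 and 5.35 in deficient sham and 5.56, 7.16 and 7.54 in deficient AngII in Balb/C. The second H2ac12 probe gave 6.93, 6.42 and 7.04 in wild type sham, 8.13, 8.85 and 8.49 in wild type AngII, 6.16, 6.25 and 5.3 in deficient sham and 5.58, 7.13 and 7.22 in deficient AngII. In wild type the probes rose by 1.96 ± 0.4 (adjusted p = 0.00127) and 1.7 ± 0.35 (adjusted p = 0.0013), with no overlap between AngII and sham. In C57Bl/6J the first H2ac12 probe read 8.4, 8.6 and 7.89 in wild type sham, 8.71, 7.43 and 7.2 in wild type AngII, 8.47, 8.62 and 7.44 in deficient sham and 7.39, 6.96 and 6.45 in deficient AngII and the second 8.19, 8.5 and 7.89 in wild type sham, 8.73, 7.35 and 7.31 in wild type AngII, 8.33, 8.28 and 7.46 in deficient sham and 6.94, 7.14 and 6.67 in deficient AngII. Both had deficient AngII arrays below deficient sham arrays without passing the test, at -1.24 ± 0.39 and -1.11 ± 0.34 (adjusted p = 0.0967 and 0.0874).

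H2ac13 gave 8.56, 8.1 and 8.76 in wild type sham, 10, 10.6 and 10.05 in wild type AngII, 7.89, 7.54 and 6.93 in deficient sham and 7.63, 8.98 and 9.38 in deficient AngII in Balb/C with one of its probes. It rose by 1.74 ± 0.34 (adjusted p = 0.000882) in wild type and 1.21 ± 0.34 (adjusted p = 0.0256) in deficient mice, whereas the other H2ac13 probe rose by 0.84 ± 0.19 (adjusted p = 0.00229) in wild type and differed by 0.53 ± 0.19 in deficient mice (adjusted p = 0.0712). In C57Bl/6J, H2ac13 read 9.22, 9.74 and 8.94 in wild type sham, 9.81, 8.51 and 8.44 in wild type AngII, 9.55, 9.57 and 8.68 in deficient sham and 8.46, 8.1 and 7.61 in deficient AngII. H2ac15 gave 6.92, 6.23 and 7.42 in wild type sham, 8.14, 9.11 and 8.6 in wild type AngII, 6.03, 6.01 and 5.11 in deficient sham and 5.55, 7.53 and 7.58 in deficient AngII in Balb/C. It rose by 1.76 ± 0.43 (adjusted p = 0.00473) in wild type. With no filter that call was lost (adjusted p = 0.0541). In C57Bl/6J, H2ac15 read 8.63, 8.84 and 8.0 in wild type sham, 9.09, 7.73 and 7.67 in wild type AngII, 8.6, 8.56 and 7.81 in deficient sham and 7.82, 7.53 and 6.76 in deficient AngII. H2ac11 gave 5.02, 4.59 and 5.12 in wild type sham, 5.76, 6.73 and 6.01 in wild type AngII, 4.65, 4.29 and 4.34 in deficient sham and 4.46, 4.63 and 5.52 in deficient AngII in Balb/C. It rose by 1.26 ± 0.26 (adjusted p = 0.00146) in wild type and had 5.55, 5.83 and 5.37 in wild type sham, 6.15, 4.73 and 4.82 in wild type AngII, 5.53, 5.61 and 4.92 in deficient sham and 5.0, 4.7 and 4.45 in deficient AngII in C57Bl/6J. The H2ac11 probe was detected on only 6 of 12 arrays in each strain. Its lower values lay near background, so the size of its differences is uncertain.

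The 12 probes varied together from array to array. In Balb/C the spread of a probe over the 12 arrays had a median of 3.61 log2 units for this set and 0.86 for all kept probes, and in C57Bl/6J the medians were 1.95 and 0.75. Wild type AngII replicate 2 was the highest Balb/C array for all 12 probes and deficient sham replicate 3 the lowest for 11. In C57Bl/6J wild type AngII replicate 1 was the highest for 11 and deficient AngII replicate 3 the lowest for 12. Leaving out that C57Bl/6J wild type array moved the set's median AngII difference from -0.36 to -0.81, while leaving out wild type AngII replicate 2 or replicate 3 moved it to -0.15 and -0.14.

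**Figure D2:**
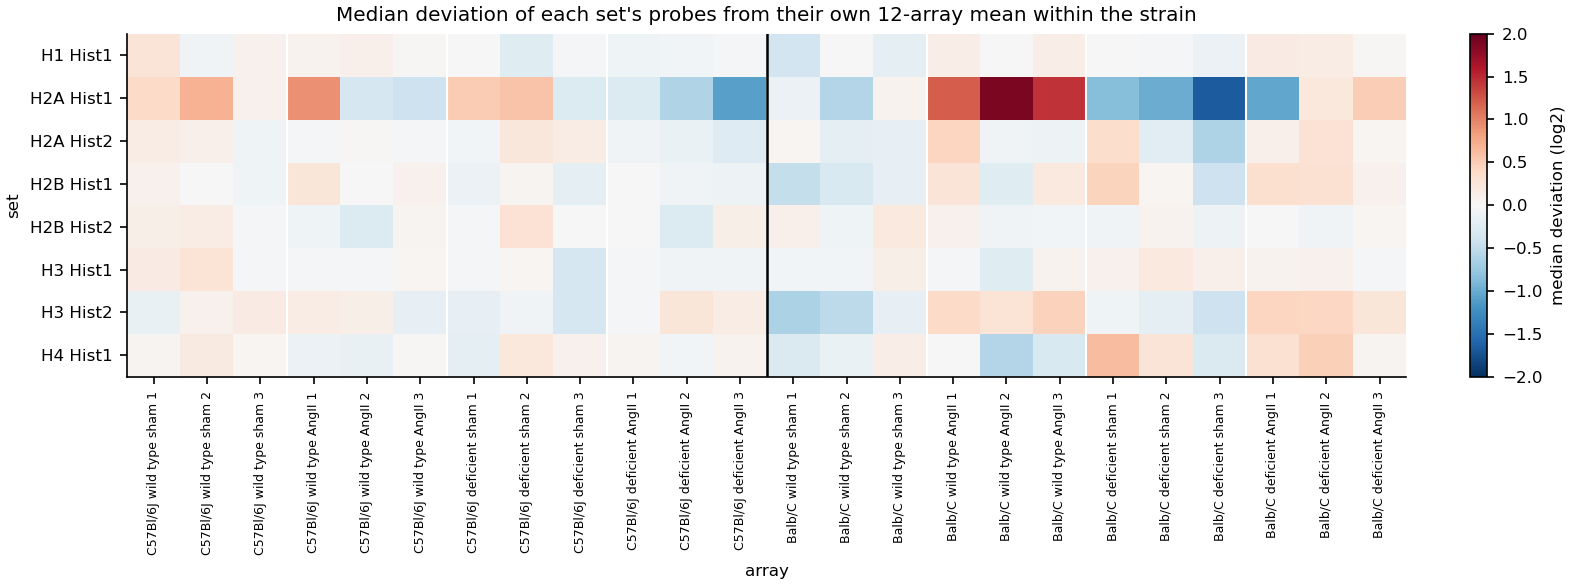
Median deviation (colour, log2 units) of the probes of each of 8 histone sets (rows) from their own mean over the 12 arrays of a strain, for each array (columns). The H2A Hist1 row has the widest colour range, with wild type AngII arrays high in Balb/C and 1 wild type AngII array high in C57Bl/6J.

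In deficient Balb/C mice, AngII was accompanied by a rise of 2 of the 8 tested H2A probes of Hist1, the dimmer probes of H2ac10 and H2ac13. The brighter probes of these genes differed by 0.39 and 0.53 and did not pass. The 12-probe median difference was 0.98. AngII arrays lay clear above sham for 1 of the 12, beside 14.4% of all kept probes. That probe was the one of H2ac22, whose response helped choose the family, and none of the tested probes was separated. Over the family 8 of 52 tested probes rose and 0 fell, or 15.4%, beside 13.4% of all kept probes (7.79% higher). AngII replicate 1 of this group lay near sham level, with a median deviation of -1.03 from the probes' means against 0.21 and 0.5 for replicates 2 and 3. Without replicate 1 the number of H2A Hist1 probes called was 5 of 8 and the 12-probe median 1.5, and without AngII replicate 2, AngII replicate 3 or sham replicate 3 the number called was 0. Both calls were lost as well with no filter (adjusted p = 0.141 for H2ac10 and 0.148 for H2ac13), without background correction (0.79 and 0.9, adjusted p = 0.0847 and 0.0775), with the deposited series values and with only the groups compared in the fit. That of H2ac13 was lost without sham replicate 2 too. The difference between the genotypes in the AngII response was called for 0 of 52 members (2 at an unadjusted p below 0.05, smallest adjusted p = 0.341), with 1.24% of all kept probes called.

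**Figure D3:**
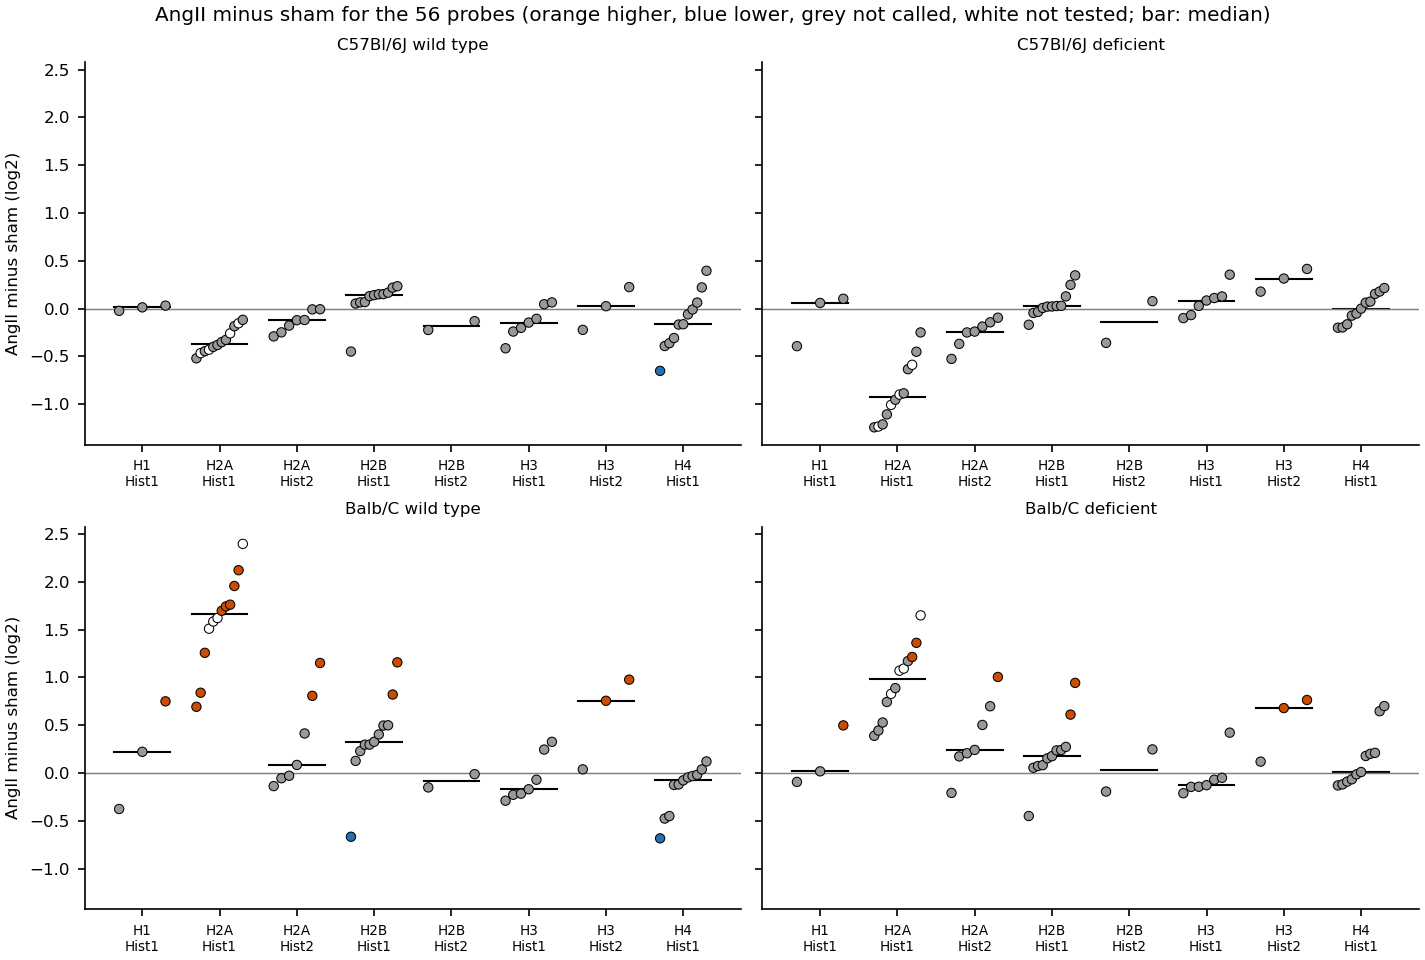
Log2 difference AngII minus sham (vertical axis) of the 56 histone probes by set (horizontal axis), in 4 panels for strain and genotype. Orange points rose and blue points fell at an adjusted p below 0.05, grey points did not pass, white points were not tested and bars are set medians; the H2A Hist1 set has the highest median of the 8 sets in Balb/C and the lowest in C57Bl/6J.

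H2A genes of the Hist2 cluster behaved less uniformly. H2ac20 gave 10.29, 9.91 and 10.26 in wild type sham, 11.18, 11.54 and 11.19 in wild type AngII, 10.07, 9.71 and 9.08 in deficient sham and 10.35, 10.71 and 10.8 in deficient AngII in Balb/C with its responding probe. This probe rose by 1.15 ± 0.21 (adjusted p = 0.000566) in wild type and by 1.0 ± 0.21 (adjusted p = 0.0047) in deficient mice, with no overlap in either. The other H2ac20 probe differed by 0.41 ± 0.26 (adjusted p = 0.235) in wild type. In C57Bl/6J the responding H2ac20 probe read 11.08, 11.38 and 10.98 in wild type sham, 11.42, 10.92 and 10.74 in wild type AngII, 11.1, 11.19 and 10.75 in deficient sham and 10.9, 10.68 and 10.36 in deficient AngII. H2ac21 rose by 0.81 ± 0.25 (adjusted p = 0.0176) in wild type Balb/C. This call was lost without AngII replicate 1 or sham replicate 2 or 3 (0.63 to 0.75, adjusted p = 0.0584 to 0.0811), with no filter (adjusted p = 0.0897) and without background correction (0.24, adjusted p = 0.0648). The set counted 2 of 7 probes higher and 0 lower there, or 28.6%, beside 34.3% of all kept probes called, with a median of 0.08. In deficient mice it counted 1 of 7, or 14.3%, beside 13.4%.

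Of 11 H2B probes of Hist1, 2 rose and 1 fell in wild type Balb/C, or 27.3%, beside 34.3% of all kept probes called. Their median was 0.33. H2bc4 gave 9.29, 9.34 and 9.36 in wild type sham, 10.9, 10.13 and 10.43 in wild type AngII, 9.92, 9.53 and 9.11 in deficient sham and 10.26, 10.64 and 10.48 in deficient AngII in Balb/C. It rose by 1.16 ± 0.2 (adjusted p = 0.000393) in wild type and 0.94 ± 0.2 (adjusted p = 0.00556) in deficient mice, and all AngII arrays stood above all sham arrays of either genotype. In C57Bl/6J, H2bc4 read 10.64, 10.81 and 10.68 in wild type sham, 10.7, 10.85 and 10.79 in wild type AngII, 10.59, 10.55 and 10.34 in deficient sham and 10.54, 10.76 and 11.23 in deficient AngII. H2bc15 rose by 0.82 ± 0.19 (adjusted p = 0.00274) and 0.61 ± 0.19 (adjusted p = 0.0383) in the same comparisons. Its deficient call was lost without any one of AngII replicates 1 to 3 or sham replicates 2 and 3 (0.45 to 0.7, adjusted p = 0.053 to 0.184). It was also lost with arrays scaled to the median (adjusted p = 0.156), with no filter (adjusted p = 0.108) and with a replicate block (adjusted p = 0.0533). H2bc6 gave 9.44, 9.72 and 9.74 in wild type sham, 10, 9.7 and 10.18 in wild type AngII, 10.4, 10.09 and 9.64 in deficient sham and 10.22, 10.19 and 9.88 in deficient AngII in Balb/C with its brightest probe and 11.52, 11.51 and 11.46 in wild type sham, 11.64, 11.47 and 11.59 in wild type AngII, 11.4, 11.49 and 11.37 in deficient sham and 11.55, 11.42 and 11.38 in deficient AngII in C57Bl/6J. The groups overlapped in both strains. Another H2bc6 probe gave 5.83, 6.11 and 6.06 in wild type sham, 5.23, 5.29 and 5.47 in wild type AngII, 6.06, 6.31 and 6.23 in deficient sham and 5.87, 5.96 and 5.41 in deficient AngII in Balb/C and 6.03, 6.3 and 6.28 in wild type sham, 6.03, 5.32 and 5.92 in wild type AngII, 5.69, 5.99 and 5.61 in deficient sham and 6.17, 6.0 and 5.88 in deficient AngII in C57Bl/6J. It fell by 0.67 ± 0.16 (adjusted p = 0.00373) in wild type Balb/C, a call that was lost with arrays scaled to the median (-0.32, adjusted p = 0.234), so the H2bc6 probes disagreed. Both H2B probes of Hist2 were among those not called in any comparison.

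Head-to-head partners could be set side by side for 4 pairs in wild type Balb/C. H2ac7 differed by 1.62 and 1.51 and its partner H2bc7 by 0.3 ± 0.21 (adjusted p = 0.307). H2ac12 rose by 1.96 and 1.7 and the H2bc12 probes gave 0.23 ± 0.21 (adjusted p = 0.427) and 0.4 ± 0.18 (adjusted p = 0.0992). H2ac15 rose by 1.76 and H2bc15 by 0.82. H2ac11, detected on 6 of the 12 Balb/C arrays, rose by 1.26 and H2bc11 gave 0.5 ± 0.19 (adjusted p = 0.0539). In each pair the H2A value was larger than the H2B value, and the difference between partners was not tested. H2ac7 was chosen for its AngII response, and the other H2A probes are not independent of its probes. The 4 pairs are therefore a description and not separate observations.

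H1f2, a linker histone gene, gave 10.58, 10.81 and 10.75 in wild type sham, 11.59, 11.38 and 11.41 in wild type AngII, 10.86, 10.9 and 11.01 in deficient sham and 11.47, 11.58 and 11.21 in deficient AngII in Balb/C with the first of its probes. It rose by 0.75 ± 0.14 (adjusted p = 0.000623) in wild type and 0.5 ± 0.14 (adjusted p = 0.0261) in deficient mice, without overlap of AngII and sham in either. The deficient call was lost without AngII replicate 1 or 2 or sham replicate 1 or 2 (0.42 to 0.49, adjusted p = 0.0716 to 0.109) and with arrays scaled to the median (0.56, adjusted p = 0.126). In C57Bl/6J, H1f2 read 13.31, 12.98 and 13.14 in wild type sham, 13.12, 13.16 and 13.08 in wild type AngII, 13.06, 12.81 and 12.97 in deficient sham and 12.97, 13.01 and 13.05 in deficient AngII, with AngII and sham overlapping in both genotypes. The second H1f2 probe differed by 0.22 ± 0.14 (adjusted p = 0.25) in wild type Balb/C. Of the 3 H1 probes 1 rose there and 0 fell, or 33.3%, beside 34.3% of all kept probes called.

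Of the 3 H3 probes of Hist2, 2 rose in both genotypes of Balb/C, or 66.7%. Of all kept probes 34.3% were called in wild type and 13.4% in deficient mice. Of the 7 H3 probes of Hist1 limma called 0 in either, with 0 and 1 at an unadjusted p below 0.05 (smallest adjusted p = 0.167 in wild type and 0.128 in deficient mice). H3c14 gave 6.95, 6.99 and 7.02 in wild type sham, 7.98, 7.86 and 8.05 in wild type AngII, 7.69, 7.4 and 6.83 in deficient sham and 8.02, 8.0 and 8.19 in deficient AngII in Balb/C. It rose by 0.98 ± 0.18 (adjusted p = 0.000453) and 0.76 ± 0.18 (adjusted p = 0.0083), while the other H3c14 probe differed by 0.04 ± 0.17 (adjusted p = 0.886) in wild type. That other probe was near background, detected on 5 of the 12 Balb/C arrays, which limits what it can show. In C57Bl/6J the responding H3c14 probe read 8.21, 8.5 and 8.95 in wild type sham, 8.52, 8.27 and 8.2 in wild type AngII, 8.19, 8.3 and 7.87 in deficient sham and 8.28, 8.52 and 8.51 in deficient AngII. H3c13 gave 7.29, 7.42 and 7.77 in wild type sham, 8.32, 8.02 and 8.4 in wild type AngII, 7.85, 7.62 and 7.52 in deficient sham and 8.43, 8.41 and 8.18 in deficient AngII in Balb/C. It rose by 0.75 ± 0.16 (adjusted p = 0.00173) and 0.68 ± 0.16 (adjusted p = 0.01), with every AngII array above every sham array. In C57Bl/6J, H3c13 read 8.74, 9.02 and 9.1 in wild type sham, 9.03, 9.16 and 8.75 in wild type AngII, 8.63, 8.88 and 8.61 in deficient sham and 9.04, 9.19 and 9.14 in deficient AngII, and the deficient AngII arrays were above deficient sham arrays at 0.42 ± 0.14, which did not pass (adjusted p = 0.113).

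**Figure D4:**
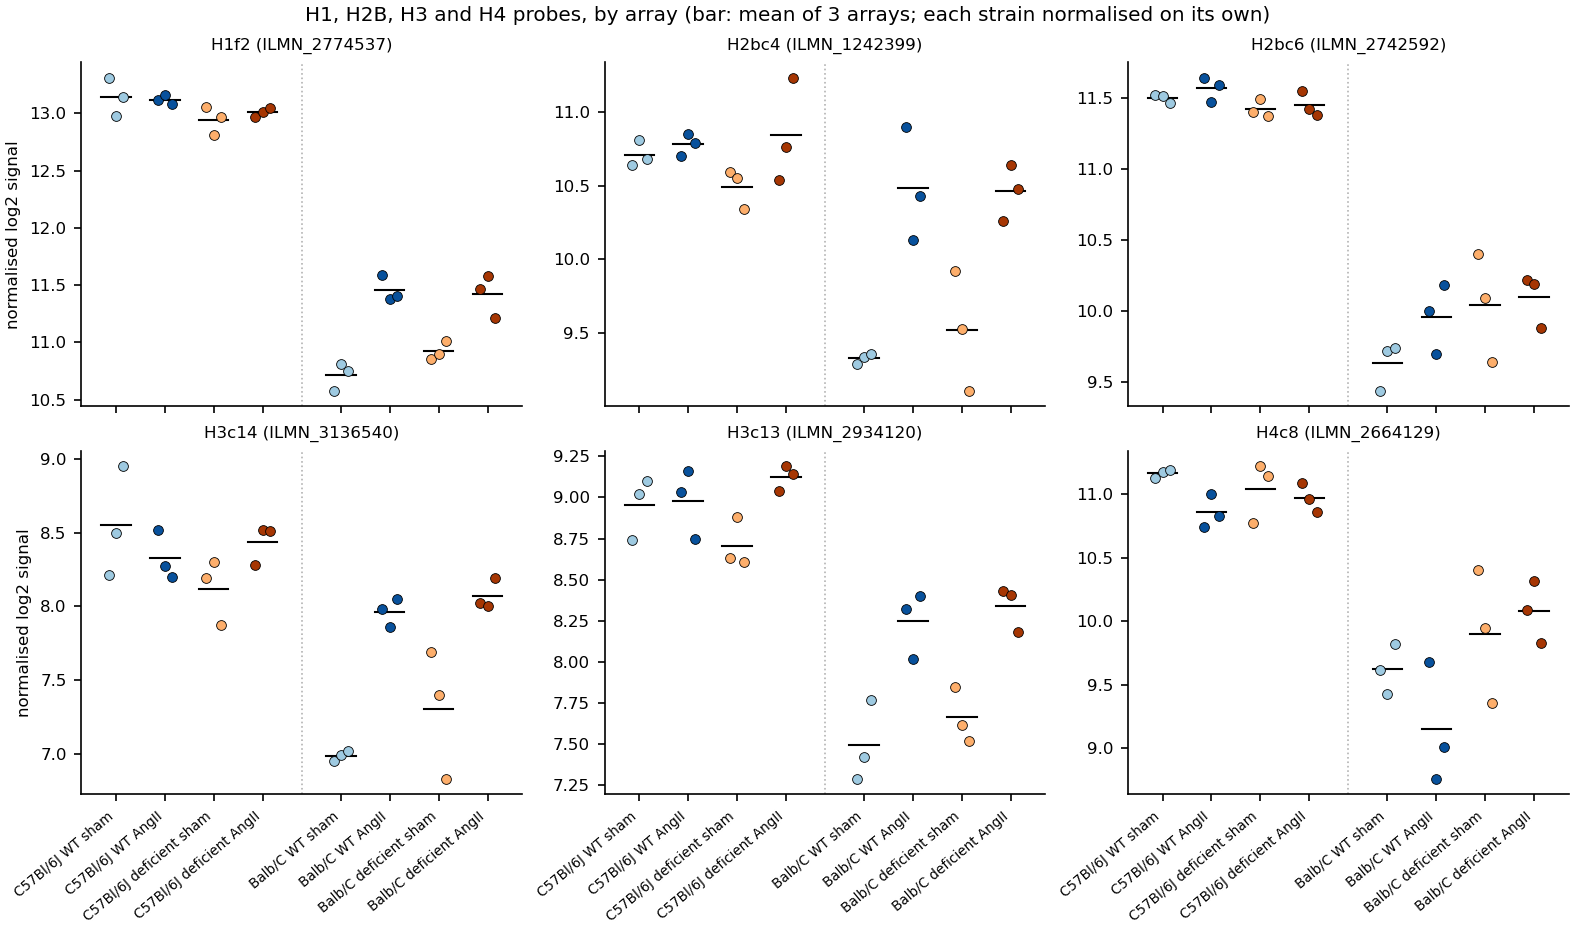
Normalized log2 signal (vertical axis) on each of the 24 arrays of 6 probes of the other classes, H1f2, H2bc4, H2bc6, H3c14, H3c13 and H4c8, by strain, genotype and treatment, with points for arrays and bars for the mean of 3. H1f2, H2bc4, H3c14 and H3c13 were higher with AngII in both Balb/C genotypes, and the H2bc6 groups overlapped.

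Of 11 H4 probes 0 rose and 1 fell in wild type Balb/C, or 9.09%, beside 34.3% of all kept probes called. H4c11 gave 8.97, 8.69 and 9.0 in wild type sham, 8.69, 7.94 and 7.98 in wild type AngII, 9.37, 9.0 and 8.61 in deficient sham and 9.07, 9.04 and 8.83 in deficient AngII in Balb/C. It fell by 0.68 ± 0.21 (adjusted p = 0.017) in wild type, a call lost when arrays were scaled to the median (-0.15, adjusted p = 0.679). It was also lost with no filter (adjusted p = 0.0693) and without AngII replicate 2 or 3 or sham replicate 1 or 3 (adjusted p = 0.0551 to 0.0796). In C57Bl/6J, H4c11 read 9.42, 9.56 and 9.36 in wild type sham, 9.05, 9.15 and 8.96 in wild type AngII, 9.23, 9.53 and 9.55 in deficient sham and 9.27, 9.27 and 9.18 in deficient AngII, with wild type AngII arrays below sham at -0.39 ± 0.12 (adjusted p = 0.0697). H4c8 gave 9.62, 9.43 and 9.82 in wild type sham, 9.68, 8.76 and 9.01 in wild type AngII, 10.4, 9.95 and 9.36 in deficient sham and 10.09, 10.32 and 9.83 in deficient AngII in Balb/C. The C57Bl/6J signals of H4c8 were 11.13, 11.17 and 11.19 in wild type sham, 10.74, 11 and 10.83 in wild type AngII, 10.77, 11.22 and 11.14 in deficient sham and 11.09, 10.96 and 10.86 in deficient AngII. H4c8 differed between AngII and sham in wild type Balb/C by -0.48 ± 0.25 (adjusted p = 0.148).

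Few members passed the test in C57Bl/6J. In wild type mice 1 of 52 tested probes changed, or 1.92%, beside 6.4% of all kept probes (3.19% lower), with 7 at an unadjusted p below 0.05. That probe, of H4c18, read 6.96, 7.19 and 7.18 in wild type sham, 6.25, 6.68 and 6.44 in wild type AngII, 6.95, 7.0 and 6.55 in deficient sham and 6.89, 6.68 and 7.11 in deficient AngII. It fell by 0.65 ± 0.16 (adjusted p = 0.0323), and the other H4c18 probe differed by -0.06 ± 0.15. The call was lost in 5 of the 6 fits that left out 1 array, all but the one without wild type AngII replicate 2 (adjusted p = 0.0509 to 0.107). It was also lost with arrays scaled to the median (adjusted p = 0.0758), with no filter on dim probes (adjusted p = 0.0506) and with a replicate block (adjusted p = 0.053). Without background correction the difference was -0.3. In Balb/C the H4c18 probe gave 5.69, 5.86 and 6.07 in wild type sham, 6.59, 5.74 and 5.14 in wild type AngII, 7.01, 5.95 and 5.46 in deficient sham and 7.07, 6.76 and 6.7 in deficient AngII, with overlapping groups for AngII against sham. In deficient C57Bl/6J mice limma called 0 of 52, beside 3.4% of all kept probes, with 11 at an unadjusted p below 0.05 and a smallest adjusted p of 0.0822, for H2ac13. All 12 H2A probes of Hist1 had negative AngII differences in both genotypes of C57Bl/6J, with medians of -0.36 and -0.93. In deficient mice 7 of 12 lay wholly below sham (12.9% of all kept probes did there) and in wild type 0 of 12 did (14.4%). The 7 include probes of H2ac24 and H2ac7, whose responses chose the family, so these counts are a description.

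Set side by side between strains, the Balb/C response minus the C57Bl/6J response had a median of 2.07 over the 12 H2A probes of Hist1 in wild type and 2.07 in deficient mice, with lowest values of 0.81 and 0.64. The corresponding medians were 0.15 and 0.48 for H2A of Hist2, 0.26 and 0.23 for H2B of Hist1 and -0.09 and 0.1 for H4. These values describe the contrast by which the family was picked and carry no test.

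Members differed between deficient and wild type mice in Balb/C. Over both treatments together, 13 of all 56 probes changed, or 23.2%, beside 6.23% of all kept probes, with 11 lower (3.28% of all kept probes) and 2 higher in deficient mice (2.95%). Of the 12 H2A probes of Hist1, 10 fell, with a median over the 12 of -1.33. H2ac7 fell by 1.6 ± 0.3 and 1.26 ± 0.21 (adjusted p = 0.00552 and 0.00319), H2ac22 by 1.42 ± 0.25 (adjusted p = 0.00343) and H2ac24 by 1.26 ± 0.22 (adjusted p = 0.00338). H2ac12, H2ac15, H2ac11 and the dimmer probes of H2ac10 and H2ac13 also fell, by 0.89 to 1.44. Among them the H2ac11 probe was near background, detected on 6 of the 12 Balb/C arrays. The brighter probes of H2ac10 and H2ac13 did not pass, and the smallest difference among the 12 was -0.37. H2ac20 of the Hist2 cluster fell by 0.61 ± 0.15 (adjusted p = 0.0258). Its call was lost without wild type sham replicate 1, wild type AngII replicate 2, deficient sham replicate 2 or deficient AngII replicate 1 (adjusted p = 0.0517 to 0.0877). With any 1 of the 12 arrays left out, at least 10 of the 12 H2A probes of Hist1 were called. Testing all 45281 probes without a filter on dim signals left the H2A Hist1 median at -1.33 and called 0 of the 56 members.

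Under AngII alone, 9 of 52 tested probes differed between Balb/C genotypes, or 17.3%, beside 8.29% of all kept probes, with 6 lower (4.91%) and 3 higher in deficient mice (3.38%). The 6 were H2A probes of Hist1, for H2ac12 at -1.98 ± 0.4 and -1.85 ± 0.35 (adjusted p = 0.00538 and 0.00315), and for H2ac10, H2ac15, H2ac13 and H2ac11 at -1.79, -1.73, -1.55 and -1.3. Of these, H2ac11 was near background, detected on 6 of the 12 Balb/C arrays. The brighter probes of H2ac10 and H2ac13 did not pass, and the smallest difference of the set was -0.52. Deficient AngII arrays lay wholly below wild type ones for each of the 8 tested H2A probes of Hist1, beside 13.3% of all kept probes. The probes of H2ac22, H2ac24 and H2ac7, given as a description, lay the same way. Leaving out wild type AngII replicate 2 left 3 of 8 called, and leaving out deficient AngII replicate 1 left 5 with the median over the 8 moving from -1.64 to -1.07. Without a filter on dim probes 0 of 52 passed under AngII, where the 9 had adjusted p-values of 0.0541 to 0.2. H2ac15 was the call lost without deficient AngII replicate 1 (-1.06) and without wild type AngII replicate 3 (-1.74, adjusted p = 0.0629). Between sham groups limma called 0 of 52 members in Balb/C, where it called 0% of all kept probes, with 12 members at an unadjusted p below 0.05 and a smallest adjusted p of 0.352. The 12-probe H2A median there was -0.998, and 9 of the 12 lay wholly below, beside 8.72% of all kept probes. These 9 include the probes of H2ac22, H2ac24 and H2ac7, whose values chose the family, so the count is a description.

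H4 genes lay the other way between Balb/C genotypes, as did most H2B and H3 probes of Hist1 with smaller medians. Over both treatments 11 of 11 H2B and 7 of 7 H3 probes of that cluster were positive, with medians of 0.27 and 0.1. Under AngII 10 of 11 and 6 of 7 were positive, with medians of 0.18 and 0.11. In both comparisons 0 of these H2B and H3 probes passed. H4c8 differed by 0.93 ± 0.25 (adjusted p = 0.0276), H4c11 by 0.78 ± 0.21 (adjusted p = 0.0279) and H4c12 by 0.98 ± 0.29 (adjusted p = 0.0429) under AngII, all higher in deficient mice, and all 11 H4 differences were positive, with a median of 0.69. The H4c12 probe read 6.36, 6.12 and 6.52 in wild type sham, 7.08, 5.87 and 5.96 in wild type AngII, 7.25, 6.5 and 6.17 in deficient sham and 7.51, 7.31 and 7.03 in deficient AngII in Balb/C and 7.12, 7.45 and 7.34 in wild type sham, 7.08, 7.02 and 7.31 in wild type AngII, 6.96, 7.35 and 7.35 in deficient sham and 7.17, 7.53 and 7.61 in deficient AngII in C57Bl/6J. Over both treatments H4c17 rose by 0.53 ± 0.13 (adjusted p = 0.0226) and H4c8 by 0.6 ± 0.17 (adjusted p = 0.0499), with 11 of 11 positive and a median of 0.53. These H4 calls depended on the scaling, on the filter (0 passed in either comparison without it) and on single arrays. With arrays scaled to the median the H4 median was 0.35 under AngII and 0.45 over both treatments, and 0 of 11 passed in either comparison. Without wild type AngII replicate 2, wild type AngII replicate 3, deficient AngII replicate 1 or deficient AngII replicate 2, 0 of 11 passed under AngII, and without wild type AngII replicate 1 the number was 6. Without deficient sham replicate 3 the number over both treatments was 9, without wild type AngII replicate 1 it was 8, and without wild type sham replicate 1, deficient sham replicate 1 or 2, wild type AngII replicate 2 or 3 or deficient AngII replicate 1 or 2 it was 0.

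**Figure D5:**
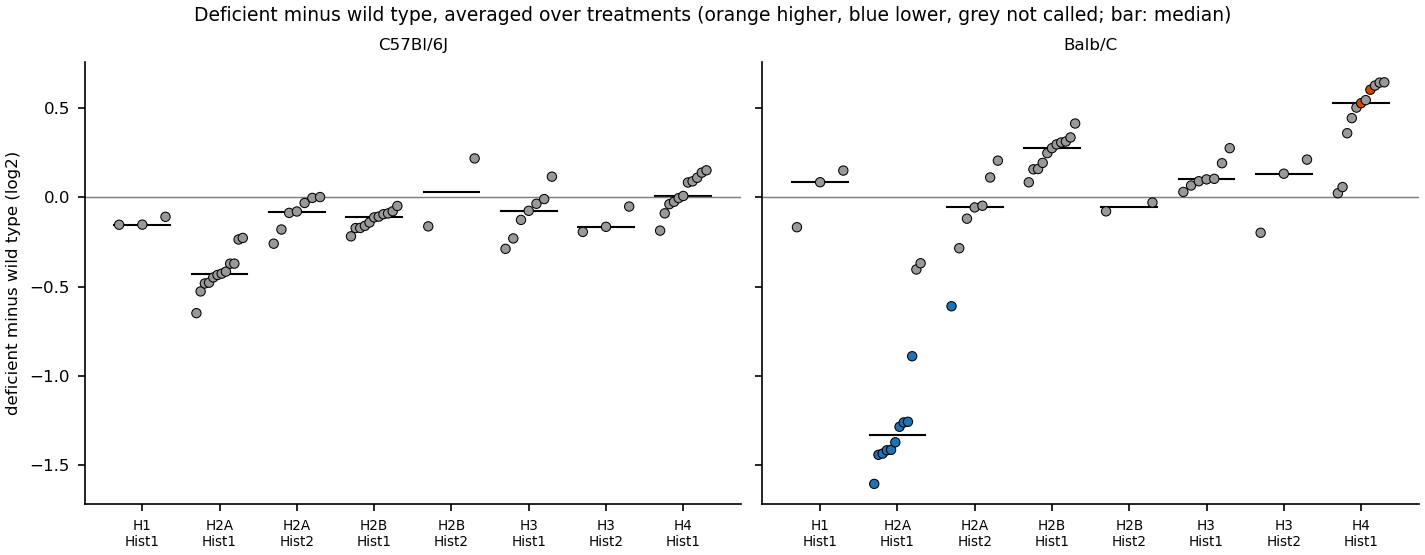
Log2 difference deficient minus wild type over both treatments (vertical axis) of the 56 histone probes by set (horizontal axis), for C57Bl/6J and Balb/C; blue points fell and orange points rose at an adjusted p below 0.05, grey points did not pass and bars are set medians. In Balb/C the H2A Hist1 set has a median of -1.33 and the H4 set one of 0.53.

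In C57Bl/6J the genotype comparisons called 0 members. Over both treatments 0 of 56 passed, with 5 at an unadjusted p below 0.05, beside 0.0492% of all kept probes. Under AngII the count was 0 of 52 with 6 at an unadjusted p below 0.05 (0.108% of all kept probes called), in sham 0 with 3 (0.00492%), and for the difference of AngII responses 0 with 3 (0.0394%). The 12 H2A probes of Hist1 all had negative differences over both treatments, from -0.65 to -0.23 with a median of -0.43, which without wild type AngII replicate 1 was -0.23.

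Genes of the cell cycle were counted beside the histone probes in wild type Balb/C, where 16.5% of all kept probes rose and 17.7% fell. Of 17 measured G2 and mitosis genes of 32 listed, 15 rose and 0 fell with AngII (median 1.15, beside -0.06 over all probes), among them Prc1, a midzone microtubule cross-linker of dividing cells, by 2.02 ± 0.37 (adjusted p = 0.000562), Anln and Nusap1. Of 31 DNA replication and S phase genes of 40 listed, 8 rose and 4 fell (median 0.11), near the 34.3% called over all kept probes. Among them were Uhrf1 at 1.64, Tyms, the thymidylate synthase, at 1.19 and Lig1, the replicative DNA ligase, at 1.12. Rpa1, of the single-strand binding complex, was at -0.55. With arrays scaled to the median the lists counted 16 higher and 0 lower of 17, and 17 higher and 0 lower of 31. That scaling moved the median of all probes in this contrast from -0.06 to 0.28. The share of all probes called with it is not given here, so these counts do not set the lists apart from other probes. Between Balb/C genotypes under AngII, 12 of the 17 G2 and mitosis genes were lower in deficient mice (median -1.01), beside 4.91% of all kept probes. So were 4 of the 31 S phase genes, among them Uhrf1, Lig1 and Mcm5. In deficient Balb/C the AngII comparison called 0 of 17 (5 at an unadjusted p below 0.05) and 2 of 31, beside 13.4% of all kept probes. The 2 were Uhrf1 at 1.18 and Rfc4 at 0.85. In wild type C57Bl/6J 6 of 29 measured S phase genes fell and 0 rose (median -0.33), where 3.19% of all kept probes fell. Among the 6 were Rpa2 at -0.87, Pold1 at -0.62 and Rrm2, a ribonucleotide reductase subunit, at -0.62. There 1 of 15 G2 and mitosis genes fell, Cenpf at -0.82. Deficient C57Bl/6J mice had 1 lower in each list, Rpa1 and Foxm1, where 3.4% of all kept probes were called.

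Summed signals of the measured G2 and mitosis genes put the same arrays at the ends as the H2A probes did. In Balb/C the sums were 911, 993 and 1156 in wild type sham, 1899, 3349 and 2641 in wild type AngII, 819, 889 and 790 in deficient sham and 828, 1111 and 1564 in deficient AngII. Wild type AngII replicate 2 was the highest and deficient sham replicate 3 the lowest, and deficient AngII replicate 1 lay among the sham arrays. In C57Bl/6J the sums were 1428, 1585 and 1441 in wild type sham, 2226, 1650 and 1170 in wild type AngII, 1283, 1551 and 1167 in deficient sham and 1319, 1295 and 1090 in deficient AngII. Wild type AngII replicate 1 was again the highest and deficient AngII replicate 3 the lowest. The summed S phase signal did not follow this order, with wild type sham replicate 2 the highest Balb/C array at 6180 and wild type AngII replicate 2 next at 5993. The part of dividing cells in the histone differences was not tested.

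Genes that handle histone RNA and protein were counted beside them. With AngII, 16.5% of all kept probes rose and 17.7% fell in wild type Balb/C, and 13.4% were called in deficient Balb/C. Of 12 measured genes for stem-loop processing and histone gene transcription, 2 rose and 3 fell with AngII in wild type Balb/C, with Ncbp2, of the cap binding complex, at 1.38, Lsm10, of the U7 ribonucleoprotein, at 0.71 and Sympk, a scaffold of the cleavage complex, at -0.56. Ncbp2 was also the only one of the 12 called in deficient Balb/C, at 1.21. Of 17 histone chaperones 0 rose and 2 fell in wild type Balb/C, Asf1a at -0.58 and Nap1l4 at -0.52. Of 8 replication-independent histone genes 4 rose, H2az1 at 0.85, H3f3b at 0.62, H2ax at 0.55 and Cenpa, the centromeric H3, at 0.46, and 0 fell. With arrays scaled to the median these 3 lists counted 5 higher and 0 lower, 6 higher and 0 lower and 8 higher and 0 lower, so the lower calls among them were not kept. That scaling moved the median of all probes in this contrast from -0.06 to 0.28. Its share of all probes called is not given here, so these counts do not set the lists apart from other probes. In wild type C57Bl/6J limma called 0 in each of the 3 lists, beside 6.4% of all kept probes. At an unadjusted p below 0.05 were 0 of 11, 1 of 18 and 1 of 10.

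Markers of ventricular cells were counted in wild type Balb/C too, where 16.5% of all kept probes rose and 17.7% fell with AngII. All 6 measured macrophage markers of 7 listed rose with AngII in wild type Balb/C, and their summed signal was 1114 to 1789 in sham and 2441 to 3300 in AngII, against 1614 to 2872 and 1535 to 2481 in deficient sham and AngII. Fibroblast markers rose for 5 of 6, with sums of 11004 to 12637 and 18467 to 22307 in wild type and 12478 to 12826 and 14184 to 17012 in deficient mice. The 2 of 6 lymphocyte markers that were measured summed to 47 to 67, near background, in all Balb/C groups. Of the other lists in wild type Balb/C, endothelial markers were called lower for 3 of 5 (0 with arrays scaled to the median), smooth muscle markers lower for 2 of 3 (1 with that scaling) and the 1 atrial marker measured higher, with 0 of 3 red cell and 0 of 2 granulocyte markers called and 0 adipocyte markers measured. Scaling to the median moved the median of all probes in this contrast from -0.06 to 0.28. Ventricular myocyte markers were called higher for 3 of 9 and lower for 0, with Nppa, a natriuretic peptide precursor, at 2.99, Ryr2, a calcium release channel, at 0.79 and Pln, a regulator of the calcium pump, at 0.72. Their sums were 109850 to 126830 in sham and 126703 to 139800 in AngII, against 113925 to 121351 and 121562 to 128108 in deficient mice. Wild type AngII replicate 2 in Balb/C (139800) and wild type AngII replicate 1 in C57Bl/6J (256598), the highest arrays for the H2A probes, were also the highest for these markers. The lowest were wild type sham replicate 3 (109850) and wild type AngII replicate 3 (227944). Macrophage sums did not order the arrays as the H2A probes did, since deficient sham replicate 3, the lowest array for 11 of the 12 H2A probes, had the second highest macrophage sum of the strain, at 2872. In C57Bl/6J wild type AngII replicate 1, the highest array for 11 H2A probes, also had the highest macrophage sum, at 7015 beside 4990 and 5029 for its replicates. The part of these cells in the histone differences was not tested.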

How the data were processed

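RNA of 24 left ventricles was read on Illumina bead arrays, with cRNA labelled by an Ambion MessageAmp kit, per the labels. The authors deposited per-probe intensity values, linear and not normalized, with detection p-values per the file headers, in 1 table per strain, and a deposited series table of log2 values. Scanner software and slides are not given in the sources used here. For Balb/C, 313 detection p-values on 11 arrays lacked their decimal point and were taken as 1; their signals lay in the lowest 0.258% of their arrays.

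Within each strain the signals were processed with limma 3.58.1 in R 4.3.3 by neqc (normal-exponential background from the detection p-values, offset 16, quantiles, log2). Probes with detection p below 0.05 on at least 3 of 12 arrays were kept, 20319 in C57Bl/6J and 19783 in Balb/C. A model of 4 group means, with 8 residual degrees of freedom, was fitted per strain, p-values were adjusted over all kept probes and a call needed an adjusted p below 0.05. Levels and responses were not tested between strains, whose tables were normalized separately. Annotation gave 1 symbol to 34885 probes, several to 18 and none listed to 10378. Lists used the brightest probe of each gene.

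Values per array are given for each probe of the choosing genes, the 15 members with the smallest p and the brightest probe of each class, and lists name up to 3 called genes by size. H4c18, H4c11, H4c12 and a further H2bc6 probe were added because their calls were few. Members and lists were chosen with earlier results of these data known. Same-numbered replicates mostly did not deviate together, with correlations over 0.1 in 1 of 18 pairs in C57Bl/6J (-0.146 to 0.18) and 2 of 18 in Balb/C (-0.102 to 0.287), so the numbers were not taken as pairs. With 3 arrays per group this check cannot exclude shared handling of some samples. On simulated data for the wild type AngII comparison, log2 changes of 1 were recovered for 76.1% of 67 probes in C57Bl/6J and 80.6% of 67 in Balb/C, and changes of 0.5 for 17.9% and 10.4%. Only 67, 67 and 66 probes were given changes of 0.5, 1 and 2. That is far fewer than the 6.4% and 34.3% of kept probes called in the data, so these shares do not give the sensitivity there. Promoters were aligned with Biopython 1.88.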

Additional observations from a re-analysis of the deposited data

How the results depend on the processing

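Counts of called members kept within 1.5 times of those reported under most of the planned settings, and none of the 48 calls of members changed sign. Comparisons with 0 calls that stayed at 0 were counted as kept, which raises that share. With no filter on dim probes 29 of the 48 calls were lost. Over these calls 296 of 356 values kept their side of the threshold under other settings and 60 lost it, and with 1 array left out 300 of 366 kept it and 66 lost it. Without background correction 22 of the 48 differences were over 1.5 times smaller. In wild type Balb/C the 17 calls became 26 with median scaling and 15 to 19 with 1 array left out. In deficient Balb/C the 8 became 5 with the brightest probe per gene, with median scaling and with no filter on dim probes, and 4 to 12 with 1 array left out (4 without AngII replicate 2, 5 without AngII replicate 3, sham replicate 2 or sham replicate 3, 12 without sham replicate 1). Over both treatments in Balb/C the 13 became 0 with no filter and 10 to 21 with 1 array left out, 21 being the count without deficient sham replicate 3. Under AngII in Balb/C the 9 became 0 with no filter and 3 to 12 with 1 array left out (3 without wild type AngII replicate 2, 5 without deficient AngII replicate 1 or wild type AngII replicate 3). Tests with no filter were adjusted over all 45281 probes, and otherwise the cause was not tested. In wild type C57Bl/6J the 1 call became 3 with the deposited series values and with no background correction, 0 with median scaling, with no filter and with a replicate block, and 0 to 1 with 1 array left out, 0 in 5 of the 6 fits. In deficient C57Bl/6J the 0 became 1 with median scaling and 2 with a replicate block, and 0 with any array left out. The replicate block, whose numbers were not taken as pairs, left no other count outside 1.5 times. The slide as a block was not run because no file gives slides. Probes near background, among them the 8 members not detected on all arrays, limit what a difference there can show.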
